A study of Mus musculus with 4 samples.

Results

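The genes described here are the matrix metalloproteinases (Mmp), the tissue inhibitors of metalloproteinases (Timp) and the ADAMTS proteases (Adamts). They were taken by symbol alone, as every mouse gene named Mmp, Timp or Adamts followed by a number and at most 1 letter. The gene table held 46 such symbols, of which 45 had a probe on the array among 20660 genes named in all. Mmp27 had no named probe and was not analysed here.

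The arrays profiled descendants of EB5, a line of mouse embryonic stem cells, that carried a Hoxb6 reporter made with red fluorescent protein (RFP). The cells of both groups had been grown for 6 days on OP9, a mouse stromal feeder line, and were then sorted by Flk-1 antibody and reporter. Both groups were Flk-1-positive, 1 being RFP-positive and the other RFP-negative, with 2 one-colour arrays each. The labels name 1 cell line and do not say whether the 2 samples of a group came from separate cultures, so that p-values measure the spread between these samples, which may be technical.

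MMPs are zinc-dependent proteases that cleave collagens, laminins and other matrix proteins, and most are secreted or held at the cell surface as inactive precursors. TIMPs bind the active site of MMPs, and Timp3 also inhibits several ADAMTS proteases. ADAMTS proteases are secreted and trim proteoglycans, procollagens and von Willebrand factor. In vessels and early mesoderm such enzymes are known for opening basement membrane during cell migration and sprouting.

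No array had Hoxb6 well above background, which leaves the reporter sort without a check on its own transcript. Kdr, which encodes Flk-1, was well above background on all 4 arrays, with means of 4.25 in the RFP-negative and 4.39 in the RFP-positive fraction. Between 55.2% and 59.3% of the spots carried the scanner software's mark for a signal well above background, and 0 were saturated. RFP-positive replicate 2 stood apart from the others, with Pearson correlations over the 13436 genes tested of 0.964 with the other RFP-positive array and of 0.953 and 0.950 with the RFP-negative arrays, where the other pairs were between 0.974 and 0.982. In the text that follows, every value is a log2 signal relative to the array's 75th percentile, and every difference is RFP-positive minus RFP-negative. The number of arrays limits the precision of all of them.

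The first question was which members the cells expressed at a measurable level. Of the 45 genes, 17 were on no array well above background, 20 were on all 4, and 8 were on 1 to 3 arrays. Of all 20660 genes named, 5521 were on none and 12424 on all 4. All 4 TIMPs were well above background on all 4 arrays. Among the 22 MMPs, 8 were on all 4 arrays and 12 on none, and among the 19 ADAMTS genes 8 were on all 4 and 5 on none.

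**Figure D1:**
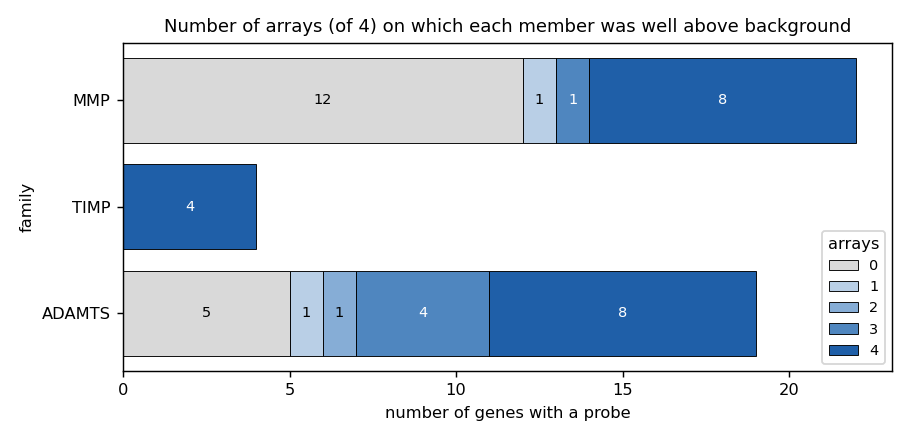
Number of genes with a probe (x axis) in each family (y axis), split by the number of arrays, 0 to 4, on which the gene was well above background. The 4 TIMPs are measured on all 4 arrays, while 12 of the 22 MMPs are measured on none, beside 5521 of all 20660 genes named.

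The MMPs without a measurable signal were the collagenases Mmp1a, Mmp1b, Mmp8 and Mmp13, which cut fibrillar collagen; the stromelysins Mmp3 and Mmp10; the matrilysin Mmp7; the metalloelastase Mmp12; the tooth enamel protease Mmp20; and Mmp16, Mmp19 and Mmp21. The ADAMTS genes without one were Adamts6, Adamts13, Adamts16, Adamts18 and Adamts20. Adamts13 encodes the protease that cleaves von Willebrand factor. Signals of these 17 genes lay between −6.86 and −4.17 on single arrays and are bounds only, in both fractions alike.

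Of these 17 genes, 9 are neighbours on the genome. A run of 10 MMP genes with 0 other protein-coding genes between them lies on chromosome 9, in the order Mmp13, Mmp12, Mmp1b, Mmp3, Mmp1a, Mmp10, Mmp8, Mmp27, Mmp20 and Mmp7. Of these, 9 had a probe, and 0 were well above background on any array. The other runs of neighbouring members were a pair on chromosome 16, Adamts1 and Adamts5, and a second pair on chromosome 9, Adamts15 and Adamts8. All 4 genes of these pairs were measured on at least 3 arrays.

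The start regions of the members were searched for short motifs. Those shown are 2 of the chromosome 9 run, where no signal was measured, and 3 of members whose arrays did not overlap between the fractions. Each is RefSeq sequence of build GRCm38.p6, from 250 bases before to 50 after the gene's start, read 5′ to 3′ on the strand of the gene, which is the plus strand in each case. Capitals mark matches, on either strand, to the letters searched. These were TGANTCA for AP-1, TGTGGT for Runx factors, CCGGAA for Ets factors, TGATTNAT for Hox with Pbx, GGGCGG for the GC box and TATAAA for the TATA box. Matches to the AP-1 and to the Hox with Pbx letters can overlap. Mmp3 is at chr9:7445572-7445871, Mmp13 at chr9:7272264-7272563, Timp1 at chrX:20869916-20870215, Mmp24 at chr2:155775092-155775391 and Adamts2 at chr11:50601835-50602134.
Mmp3: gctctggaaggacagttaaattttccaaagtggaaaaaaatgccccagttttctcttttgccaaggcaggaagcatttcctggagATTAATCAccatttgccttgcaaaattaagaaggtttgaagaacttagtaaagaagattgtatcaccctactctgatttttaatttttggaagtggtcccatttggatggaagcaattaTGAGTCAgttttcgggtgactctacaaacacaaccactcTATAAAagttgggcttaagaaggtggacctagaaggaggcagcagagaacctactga
Mmp13: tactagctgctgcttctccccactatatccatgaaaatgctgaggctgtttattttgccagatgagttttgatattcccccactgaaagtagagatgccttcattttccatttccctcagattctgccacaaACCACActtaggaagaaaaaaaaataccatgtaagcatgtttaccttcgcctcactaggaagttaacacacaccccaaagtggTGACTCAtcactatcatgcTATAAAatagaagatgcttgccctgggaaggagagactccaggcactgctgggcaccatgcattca
Timp1: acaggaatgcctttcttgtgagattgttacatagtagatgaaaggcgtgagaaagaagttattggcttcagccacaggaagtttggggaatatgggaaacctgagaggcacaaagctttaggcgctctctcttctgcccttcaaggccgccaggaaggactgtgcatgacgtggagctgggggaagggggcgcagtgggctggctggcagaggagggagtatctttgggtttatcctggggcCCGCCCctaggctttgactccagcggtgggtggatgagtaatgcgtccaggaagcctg
Mmp24: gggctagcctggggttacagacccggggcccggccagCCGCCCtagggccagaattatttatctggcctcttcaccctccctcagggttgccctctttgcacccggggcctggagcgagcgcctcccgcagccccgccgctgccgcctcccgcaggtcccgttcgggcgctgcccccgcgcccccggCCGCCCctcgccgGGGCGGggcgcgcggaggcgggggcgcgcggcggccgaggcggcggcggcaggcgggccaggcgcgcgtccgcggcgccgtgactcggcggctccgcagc
Adamts2: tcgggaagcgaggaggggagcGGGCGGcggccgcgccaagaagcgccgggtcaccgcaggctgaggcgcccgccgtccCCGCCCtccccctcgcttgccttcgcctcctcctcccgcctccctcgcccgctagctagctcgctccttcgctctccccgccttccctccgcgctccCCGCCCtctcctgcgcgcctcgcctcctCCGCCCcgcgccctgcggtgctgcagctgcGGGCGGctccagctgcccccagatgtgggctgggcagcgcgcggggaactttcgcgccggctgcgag

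In the Mmp3 and Mmp13 windows the capitals are an AP-1 and a TATA box match near the start, with a Hox with Pbx match further up in Mmp3 and a Runx match in Mmp13. The Timp1 window holds 1 GC box match, the Mmp24 window 3 and the Adamts2 window 5, and none of these 3 windows has a match to the other letters. GC content was 40% and 43.7% for Mmp3 and Mmp13, and 55.0%, 80.0% and 77.3% for Timp1, Mmp24 and Adamts2, with a median of 52.7% over all windows.

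The table held windows for 32 of the 46 member symbols, 35 windows in all. AP-1 letters were in 8 of the 35, against 7.81% of all 32851 windows. These belonged to Mmp1a, Mmp1b, Mmp3, Mmp7, Mmp10, Mmp12, Mmp13 and Mmp20, and all 8 genes were on no array well above background. All 8 lie in the run on chromosome 9, so that they do not count as separate observations. Over all named genes with such a window, 39.7% of those with AP-1 letters were on no array well above background, and 26.6% of all those with a window. TATA box letters were in the windows of 11 members on the array, of which 10 had no array well above background. Of these 10, all but Mmp21 lie in the same run. Whether the letters or the shared place go with the missing signal was not tested. Over all genes with TATA box letters that share was 46.2%. The exception was Adamts1, which was measured on all 4 arrays. GC box letters were in the windows of 18 members on the array, 12 of them measured on all 4 arrays and 3 on none, and over all genes with GC box letters 78.7% were measured on all 4. Of the other letters searched, Runx letters were in 6 of the 35 windows, against 16.8% of all windows. Ets letters were in 1, against 14.9%, and Hox with Pbx letters in 2, against 3.22%. A match is a run of letters and was not tested as a binding site.

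The comparison between the fractions asked which members differed between RFP-positive and RFP-negative cells. A gene was tested if its brightest probe was well above background in at least 1 fraction (both arrays), as held for 25 of the 45 members. By limma's moderated test with Benjamini-Hochberg adjustment over the 13436 genes tested, 0 of the 25 members passed an adjusted p of 0.05, beside 0% of all genes tested, and the members' adjusted p ran from 0.662 to 0.991. At an unadjusted p under 0.05 3 members were higher and 2 were lower, beside 2.77% and 3.72% of all genes tested. Of the 3, Adamts2 and Adamts17 passed the filter through the RFP-positive fraction, in which they were brighter, which favours a difference. With only genes well above background on all 4 arrays, 1 member of 20 was higher and 2 were lower, beside 732 of all 12424 such genes in either direction. With 2 arrays against 2, an exact two-sided permutation test cannot give a p below 0.333 for a single gene.

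The members are therefore described by whether the arrays of the fractions overlapped. Both RFP-positive arrays lay below both RFP-negative arrays for 8 members (Mmp2, Mmp11, Mmp14, Mmp23, Mmp24, Mmp28, Timp1 and Adamts5), beside 21.6% of all genes tested, and above them for 4 (Mmp9, Adamts2, Adamts9 and Adamts17), beside 18.8%. Among the 20 members well above background on all 4 arrays, 6 were lower and 2 higher without overlap, beside 20.4% and 18.9% of all such genes. Of the 12 members without overlap, Mmp23, Adamts2, Adamts5 and Adamts17 passed the filter through the fraction in which they were brighter, which favours a separation. By size, 2 members (Adamts2 and Adamts17) were at least 2-fold higher between every pair of arrays and 0 lower, beside 0.469% and 0.893% of all genes tested. The median difference was −0.07 over the 25 tested members and −0.05 over all genes tested, and −0.11 over the 20 members measured on all 4 arrays and −0.04 over all such genes.

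**Figure D2:**
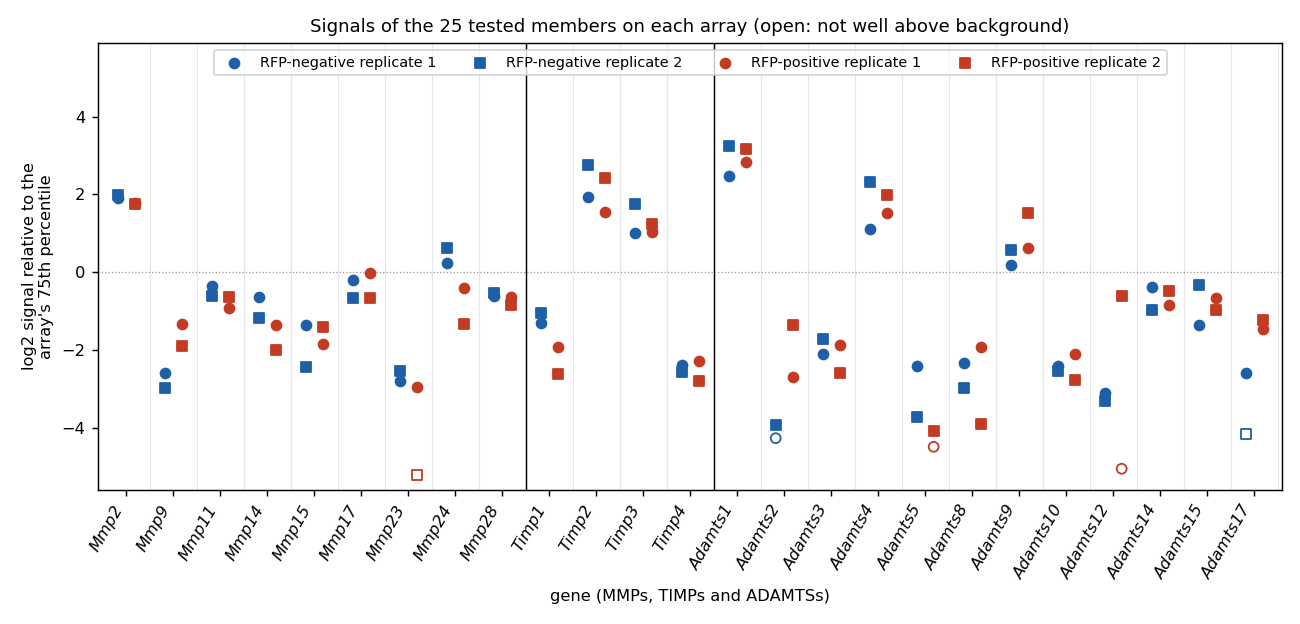
Log2 signal of the 25 tested members (x axis) on each array relative to that array's 75th percentile (y axis), blue for RFP-negative and red for RFP-positive, with circles for replicate 1, squares for replicate 2 and open symbols for signals not well above background. The red symbols of Mmp9, Adamts2, Adamts9 and Adamts17 lie above the blue ones, and those of Mmp14, Mmp24 and Timp1 below.

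Of the 4 transmembrane MMPs tested, 3 were lower without overlap in RFP-positive cells (Mmp14, Mmp23 and Mmp24) and 0 higher, beside 21.6% and 18.8% of all genes tested. None passed the adjusted test. Mmp23 passed the filter through the RFP-negative fraction, in which it was brighter, and with normexp it overlapped. Of the 3 measured on all 4 arrays, 2 were lower and 0 higher, beside 20.4% and 18.9% of all such genes. Mmp24 (MT5-MMP), a transmembrane protease, was at 0.23 and 0.63 on the RFP-negative arrays and at −0.40 and −1.33 on the RFP-positive arrays. The fractions did not overlap, and the RFP-positive arrays differed from each other by more than the RFP-negative ones. The difference was −1.29 (SE 0.39, 95% interval −2.32 to −0.26, limma adjusted p 0.732). A second Mmp24 probe, also well above background on all 4 arrays, differed by only −0.17 and overlapped between the fractions, and with the mean of both probes the difference was −0.73.

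Mmp14 (MT1-MMP) is the chief collagenase of the cell surface and activates the precursor of Mmp2 in a complex with Timp2. It was at −0.64 and −1.17 in the RFP-negative and at −1.36 and −2.00 in the RFP-positive fraction, with no overlap. The difference was −0.77 (SE 0.35, limma adjusted p 0.745), and it was −0.46 without RFP-positive replicate 2 and −0.51 without RFP-negative replicate 1.

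Mmp2, the gelatinase that Mmp14 activates, was at 1.89 and 1.98 in RFP-negative cells and at 1.78 and 1.74 in RFP-positive cells. These 4 arrays lay within a narrow band, and the difference of −0.18 (SE 0.22) had a 95% interval from −0.76 to 0.41. Timp2 was at 1.92 and 2.76 in RFP-negative cells and at 1.53 and 2.42 in RFP-positive cells, so that the fractions overlapped. Its difference was −0.37 (SE 0.45), and a second probe, measured on all 4 arrays, differed by −0.57 without overlap.

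Other membrane MMPs were measured only in part or with overlap. Mmp23, a transmembrane protease with an unusual cysteine-rich region, was at −2.80 and −2.55 in RFP-negative cells and at −2.95 on RFP-positive replicate 1. On RFP-positive replicate 2, at −5.22, it was not well above background, and without that array the difference of −1.41 shrank to −0.28. Mmp15 (MT2-MMP) was at −1.35 and −2.43 against −1.86 and −1.42, with overlap and a difference of 0.25 (SE 0.44). The GPI-anchored Mmp17 was at −0.20 and −0.66 against −0.02 and −0.66, a difference of 0.09 (SE 0.34). Mmp25, the other GPI-anchored MMP, passed background only on RFP-positive replicate 2, at −3.80, and was not tested.

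Of the secreted MMPs activated inside the cell by furin, Mmp11 and Mmp28 were tested, and neither passed. Mmp11 was at −0.35 and −0.61 in RFP-negative cells and at −0.93 and −0.64 in RFP-positive cells, a difference of −0.30 (SE 0.25), and a second probe measured on all 4 arrays differed by −0.39 without overlap. Mmp28 was at −0.62 and −0.54 against −0.63 and −0.84, a difference of −0.16 (SE 0.23). For Mmp28 the nearest arrays of the fractions were almost level, and the fractions overlapped under quantile normalization, median scaling, normexp and the mean of all probes. Mmp11 overlapped under median scaling. MMPs lower without overlap numbered 6 of 9 tested as reported, beside 21.6% of all genes. They numbered 5 under quantile normalization, beside 20.1%, and 4 under median scaling, beside 16.6%. With normexp, where Mmp23 overlapped as well as Mmp28, they numbered 4, beside 20.2%, and with the mean of all probes 5, beside 21.7%. Among the 8 MMPs measured on all 4 arrays 5 were lower as reported, beside 20.4% of all such genes.

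Mmp9 was the MMP that was higher in RFP-positive cells. It encodes gelatinase B, which degrades basement membrane collagen and releases matrix-bound VEGF. The gene was at −2.60 and −2.98 on the RFP-negative arrays and at −1.34 and −1.91 on the RFP-positive arrays, well above background on all 4. Every RFP-positive value exceeded every RFP-negative value, and the gap between the fractions was larger than that between arrays of a fraction. The difference was 1.16 (SE 0.31, 95% interval 0.35 to 1.98), or 2.24-fold, with a limma adjusted p of 0.704. It was between 0.88 and 1.45 with each array left out in turn and 0.53 with normexp.

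Of the inhibitors, Timp1 was lower in RFP-positive cells. Timp1 is a secreted inhibitor of most soluble MMPs that binds the precursor of Mmp9. It was at −1.31 and −1.06 in the RFP-negative and at −1.92 and −2.63 in the RFP-positive fraction, with no overlap. The difference was −1.09 (SE 0.33, 95% interval −1.95 to −0.23), or 2.12-fold lower, with a limma adjusted p of 0.730. It was −0.73 without RFP-positive replicate 2 and −0.52 with normexp.

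The remaining TIMPs overlapped between the fractions. Timp3, which is bound to the matrix, was at 1.01 and 1.75 in RFP-negative cells and at 1.02 and 1.25 in RFP-positive cells, a difference of −0.24 (SE 0.33). Timp4 was at −2.40 and −2.56 against −2.29 and −2.81, a difference of −0.07 (SE 0.28). Its sign turned under median scaling and normexp. Over the 4 TIMPs the median difference was −0.31, and over all genes tested it was −0.05.

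The procollagen N-proteinases Adamts2, Adamts3 and Adamts14 cut the amino-terminal propeptide from fibrillar procollagens. Adamts2 was at −4.27 and −3.93 on the RFP-negative arrays and at −2.71 and −1.36 on the RFP-positive arrays, and RFP-negative replicate 1 was not well above background. Both RFP-positive arrays were more than 2-fold above both RFP-negative ones, but they also differed by more than 2-fold from each other. The difference was 2.07 (SE 0.50, limma adjusted p 0.662), and it was 1.39 without RFP-positive replicate 2 and 0.78 with normexp. A second Adamts2 probe, well above background on 2 arrays, differed by 0.42 with overlap.

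Adamts14 and Adamts3, of the same group, overlapped between the fractions. Adamts14 was at −0.39 and −0.97 in RFP-negative cells and at −0.86 and −0.48 in RFP-positive cells, a difference of 0.01 (SE 0.32). Adamts3, which also processes the lymphatic growth factor VEGF-C, was at −2.11 and −1.72 against −1.86 and −2.60, a difference of −0.32 (SE 0.35). Their 95% intervals, −0.81 to 0.84 and −1.23 to 0.59, do not show that these genes were equal in the fractions.

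Adamts17, a protease linked to the fibrillin network, was at −2.60 and −4.16 in RFP-negative cells and at −1.46 and −1.22 in RFP-positive cells. The RFP-positive arrays lay close together, while RFP-negative replicate 2 was not well above background. The difference was 2.04 (SE 0.56, limma adjusted p 0.722), and without RFP-negative replicate 2 it was 1.26. A second Adamts17 probe went the other way, by −0.20, with overlap and 2 arrays well above background, and the mean of both probes differed by 0.92.

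Adamts10, which also acts on fibrillin microfibrils, was at −2.42 and −2.55 against −2.10 and −2.78, a difference of 0.05 (SE 0.32). Adamts19 was well above background on replicate 2 of both fractions alone, at −3.47 in RFP-negative cells and −4.09 in RFP-positive cells. It was not tested.

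The proteoglycan-cleaving ADAMTS genes, which cut versican and aggrecan, gave 1 member higher and 1 lower without overlap of 6 tested, beside 18.8% and 21.6% of all genes tested. Adamts9 was at 0.18 and 0.58 in RFP-negative cells and at 0.63 and 1.53 in RFP-positive cells. The nearest arrays of the fractions were almost level, and RFP-positive replicate 2 stood highest. The difference was 0.70 (SE 0.39, limma adjusted p 0.75), and it was 0.25 without RFP-positive replicate 2.

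Adamts5, an aggrecanase, was at −2.41 and −3.72 in RFP-negative cells and at −4.10 on RFP-positive replicate 2, and on replicate 1, at −4.50, it was not well above background. The difference was −1.24 (SE 0.50, limma adjusted p 0.745). Without RFP-negative replicate 1, the brightest array, it was −0.58, and with normexp it was −0.29 and the fractions overlapped.

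Adamts1 and Adamts4 varied more within the RFP-negative fraction than between the fractions. Adamts1, which cleaves versican and inhibits endothelial growth, was at 2.48 and 3.25 in RFP-negative cells and at 2.84 and 3.15 in RFP-positive cells. Adamts4, the other early aggrecanase, was at 1.1 and 2.31 against 1.52 and 1.98. In each gene the 2 RFP-positive arrays lay between the 2 RFP-negative arrays, and the differences were 0.13 (SE 0.35) and 0.04 (SE 0.48).

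Adamts15 was at −1.37 and −0.32 against −0.66 and −0.97, again with the RFP-positive arrays inside the RFP-negative range, and a difference of 0.03 (SE 0.42). Adamts8 was at −2.35 and −3.00 against −1.93 and −3.91, a difference of −0.25 (SE 0.71). The genes named for cleaving cartilage oligomeric matrix protein (Comp) were dim or uneven. Adamts12 was at −3.11 and −3.32 in RFP-negative cells, at −0.63 on RFP-positive replicate 2 and, not well above background, at −5.06 on replicate 1. Its RFP-positive arrays thus lay on both sides of the RFP-negative ones, and the difference of 0.38 had an SE of 1.45. Adamts7 was well above background on RFP-negative replicate 2 alone, at −3.44, and was not tested.

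**Figure D3:**
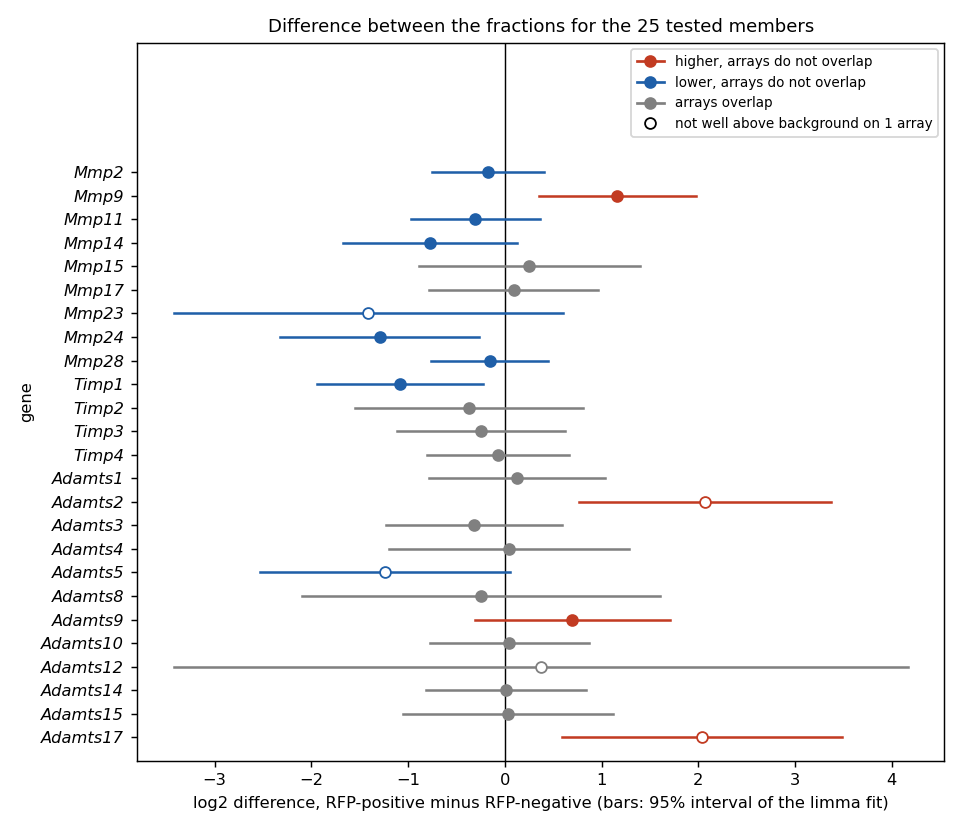
Log2 difference between the fractions for the 25 tested members (x axis, RFP-positive minus RFP-negative, 1 row per gene), with the 95% interval of the limma fit, coloured by whether the arrays overlapped, and open where 1 array was not well above background. The intervals of Mmp9, Adamts2, Adamts17, Mmp24 and Timp1 lie on 1 side of 0 before adjustment over all genes tested.

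Against the scatter between arrays of a fraction, 8 of the 25 tested members had a difference larger than the gap between the arrays of either fraction. They were Mmp2, Mmp9, Mmp11, Mmp14, Mmp24, Timp1, Adamts2 and Adamts17. Adamts2 and Adamts17 passed the filter through the fraction in which they were brighter. For 9 members, among them 7 of the ADAMTS family, 2 arrays of the same fraction lay at least 1 apart on the log2 scale. The same shares over all genes tested were not computed, so both counts describe these members alone.

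Of 14 members with 2 probes, 3 had both well above background on all 4 arrays (Mmp11, Mmp24 and Timp2). The 2 probes gave the same sign in all 3, with the differences given beside each gene. Where probes disagreed in size, as for Mmp24, Adamts2 and Adamts17, which probe tracks the transcript was not tested.

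Other genes of matrix proteolysis were read from lists drawn up by function, and 0 of their genes passed an adjusted p of 0.05 by limma. Over all genes tested, 21.6% were lower and 18.8% higher without overlap. A listed gene tested but not well above background on every array passed the filter through 1 fraction only. Where that fraction was the brighter, this favours a separation. Plasminogen activation, which produces plasmin and feeds MMP activation, was measured through 5 of 10 genes, of which 3 were lower and 0 higher without overlap. Plaur, the receptor of urokinase, differed by −0.79 and the activator Plat by −0.68. Plasminogen itself (Plg) was on no array well above background.

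Regulators of matrix proteases had 9 of 13 genes tested and a median of 0.03. Without overlap 3 were higher and 1 was lower, beside 18.8% and 21.6% of all genes tested. Reck, a membrane-anchored inhibitor of MMPs, was higher by 0.79 and the proprotein convertase Pcsk5 by 0.75, while the MMP inducer Bsg differed by −0.44. Furin, which activates Mmp11, Mmp28 and the membrane MMPs, differed by 0.29. The broad protease inhibitors A2m and Pzp were on no array well above background, nor were Tfpi2 and Pcsk6.

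The ADAM proteases, membrane-bound shedding enzymes, had 9 of 12 genes tested and a median of 0.05. Without overlap 1 was higher and 2 were lower, beside 18.8% and 21.6% of all genes tested. Adam9 differed by 0.50, Adam33 by −0.49 and Adam11 by −0.42. Of the ADAMTS-like proteins, which lack the protease domain, only Adamtsl4 was tested, at −0.69 and lower without overlap. The astacin list had 5 of 7 genes tested and a median of −0.13. In it the procollagen C-proteinase Bmp1 differed by 0.55, Pcolce2 by −0.21 and Mep1b, well above background on 3 arrays, by 0.77 with overlap. Cathepsins and cystatin had 5 of 7 genes tested, 1 lower without overlap, and a median of −0.13, with Ctsb at −0.70, Ctsd at −0.25 and Ctsl at −0.13.

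The substrates were read as well. Of the fibrillar procollagens, on which Adamts2, Adamts3 and Adamts14 act, 8 of 9 were tested, with a median of −0.77. Without overlap 6 were lower and 1 was higher. The shares over all genes tested, here and for the next lists, were 21.6% lower and 18.8% higher. Of the 5 procollagen genes measured on all 4 arrays, 4 were lower and 1 was higher, beside 20.4% and 18.9% of all such genes. Col1a1 differed by −0.85 and Col11a2 by −1.78. Col5a3, below the mark for background in both RFP-positive arrays, was brighter in the RFP-negative fraction, with an approximate lower bound of 2.70-fold. Among proteoglycans and other ADAMTS substrates 9 of 12 were tested, 2 higher and 3 lower without overlap, with a median of −0.0021. Comp differed by −1.78, Vwf by 0.56 and Fbn2 by 0.70. AP-1 and Ets factors had 14 of 14 genes tested, 3 higher and 1 lower without overlap, and a median of 0.10, with Junb at −1.06, Fos at 0.70 and Etv4 at 0.34.

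Markers of other cells moved beside these genes. Fewer cells of a type and less RNA per cell cannot be told apart in sorted bulk samples. Of 16 markers of OP9 stroma and fibroblasts, 14 were tested, 6 lower and 1 higher without overlap, beside 21.6% and 18.8% of all genes tested. Their summed signal, in multiples of the array's 75th percentile, was 59.6 to 93.6 in RFP-negative cells and 41.2 to 49.9 in RFP-positive cells, and Postn and Dpt were on no array well above background. Those of smallest p were Vcam1 at −1.50, Thy1 at −0.89 and S100a4 at −1.21. All 12 adipocyte markers were lower without overlap, with a median of −1.63 and summed signals of 57.5 to 72.8 against 18.5 to 24.0, led by Cidec at −2.54, Cfd at −1.81 and Car3 at −1.81. Mural markers had 9 of 10 tested, 5 lower and 0 higher without overlap, and summed signals of 33.8 to 50.6 against 25.9 to 27.1, with Cspg4 on no array well above background. Cnn1 differed by −0.62, Myl9 by −0.79 and Actg2 by −0.84. The part of these cell types in the lower Timp1, Mmp14 and Mmp24 signals was not tested.

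Beside the higher Mmp9 signal stood the endothelial markers, of which 12 of 12 were tested, 6 higher and 0 lower without overlap. The shares over all genes tested, here and for the next lists, were 18.8% higher and 21.6% lower. Summed signals of the endothelial markers were 83.0 to 88.9 in RFP-negative cells and 98.0 to 114.6 in RFP-positive cells. Flt1 differed by 0.84, Sox7 by 0.83 and Vwf by 0.56. Of the leukocyte markers 10 of 12 had a probe and 8 were tested, 0 higher and 3 lower without overlap, with summed signals of 146.9 to 154.8 against 137.2 to 141.6. Such sums are set mostly by the brightest genes of a list. The median log2 level of the leukocyte markers measured on all 4 arrays was −1.83 and −2.07 in RFP-negative cells. In RFP-positive cells it was −1.60 and −2.25. Spi1 differed by −1.11. Aif1 was well above background on 3 arrays, at −2.94, −2.51 and −3.47, and not on RFP-positive replicate 2, at −6.81, which carries most of its difference of −2.42. Fcer1g, also well above background on 3 arrays, differed by 1.34 with overlap. Lyz2 and Elane were on no array well above background. Markers of Flk-1 mesoderm were tested 10 of 10, 5 higher and 1 lower without overlap, with Pdgfra at 0.79, Bmp4 at 0.52 and Mesp1 at −0.74 and summed signals of 82.1 to 82.4 against 76.4 to 91.9. Pluripotency markers had 8 of 10 tested, 2 lower and 0 higher without overlap, with Dppa4 at −0.49, Pou5f1 at −1.05 and Sox2, well above background on 3 arrays, at −0.48 with overlap, summed signals of 495.2 to 596.6 against 415.2 to 513.7, and Zfp42 on no array well above background. The part of any of these in the Mmp9 difference was not tested.

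**Figure D4:**
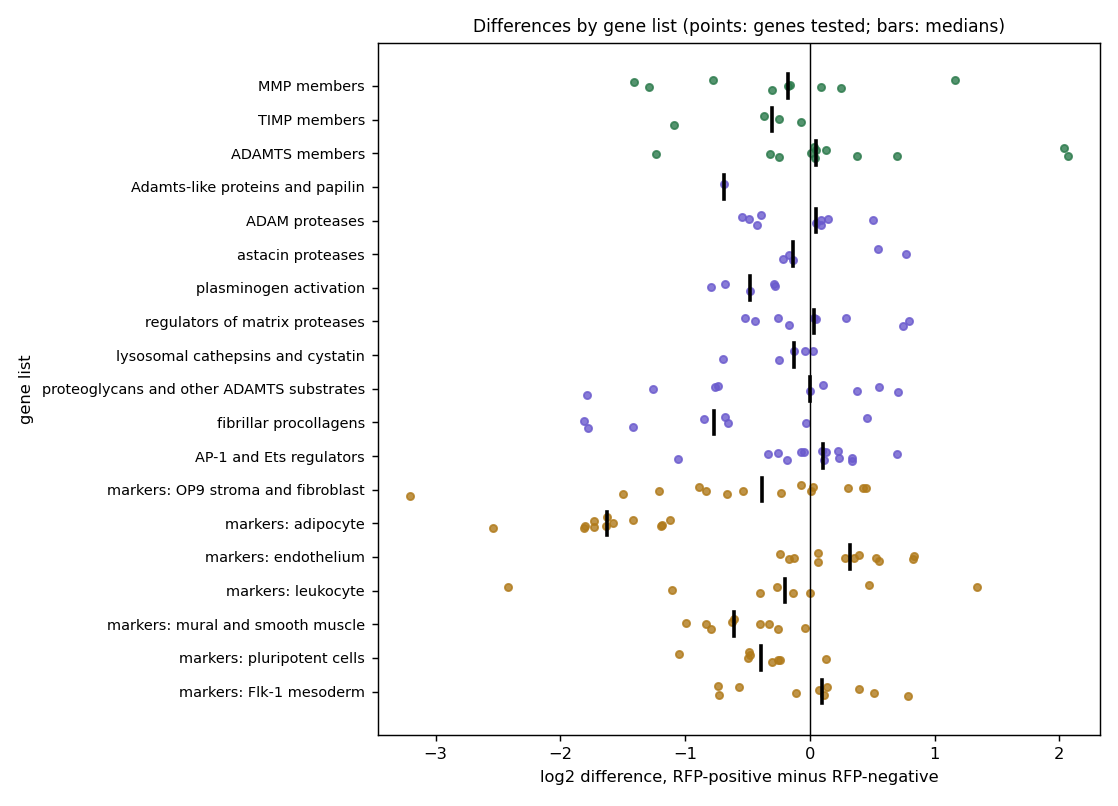
Log2 difference between the fractions (x axis, RFP-positive minus RFP-negative) for each gene tested (points) and the median (black bars) of the 3 member families (green), of other proteolysis, substrate and regulator lists (purple) and of cell type markers (ochre). The MMP, TIMP and ADAMTS medians are −0.18, −0.31 and 0.05. The lowest median of the lists drawn is that of the adipocyte markers, −1.63, and the highest that of the endothelial markers, 0.32.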

How the data were processed

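RNA of sorted cells was hybridised to 4 one-colour (Cy3) Agilent arrays, grouped by the reporter status in the labels. Per the file headers, the deposited intensity of a spot is the processed signal written by Feature Extraction 10.10.1.1, Agilent's scanner software. All arrays shared 1 slide and 1 scan time. The deposited value table is the same intensity times 1 constant per array, from 5.39 to 6.45.

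Of 62976 spots per array, 3671 control spots and 115 to 153 outlier spots were left out. The log2 signal minus that of the array's 75th percentile was taken, and spots of a probe were averaged. Probes were named through RefSeq accessions (table of assembly GRCm38); 27235 of 55681 had 1 symbol. The brightest probe stood for a gene. Where a gene was above background in 1 fraction only, an approximate lower bound was taken. It is set against each array's lowest signal among probes well above background, or against the gene's own signal where that was higher. That lowest signal is not a detection limit for every probe, since some unmarked signals lie above it. Differences were tested in R 4.3.3 by limma 3.58.1 (lmFit, eBayes, no block, two-sided) and adjusted over 13436 genes, and the steps were tested on simulated data. Alternatives were other scalings, normexp (offset 50, on median signals), the deposited table, other filters, the mean of probes, other variance models, a replicate block and each array left out.

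The members and the lists were chosen with earlier results of these data known. Every member is named; beside them Kdr, Hoxb6, the 3 genes or fewer with the lowest p in each list, and markers on no array above background. Genes named to make a point on a list beyond these were chosen after their values were seen. A gene that this rule names is not reported here. Figures were drawn with matplotlib 3.10.9.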

Additional observations from a re-analysis of the deposited data

How the results depend on the processing

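No alternative gave a member past an adjusted p of 0.05 in limma. At an unadjusted p under 0.05 the alternatives that kept all 4 arrays gave between 1 and 5 higher and between 2 and 3 lower members. Over all genes, in either direction, such p-values numbered from 732 of 12424 with only genes measured on all 4 arrays to 1122 of 20660 without a filter. In 21 of the 25 tested members the sign of the difference held under every alternative that kept all 4 arrays, and in 12 also with each array left out. Under median scaling Timp4, the middle of the 25 members, turned to 0.0147, which is also the members' median there. With normexp Timp4 and the median were 0.0094, Adamts15 turned to −0.0203 and Adamts8 to 0.0116. With the mean of all probes Adamts14 turned to −0.21. Normexp, whose offset shrinks differences of dim probes, left 5 members lower without overlap in place of 8, and gave −0.45 for Mmp14, −0.91 for Mmp24, −0.21 for Mmp23 and 0.79 for Adamts17. Without a filter 7 members were higher without overlap in place of 4 and 11 lower in place of 8. The genes added there were not tested in the main fit, and the share over all genes was not computed. With only genes measured on all 4 arrays 2 members were higher and 6 lower, beside 18.9% and 20.4% of all such genes, since fewer members are tested.

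With each array left out in turn, members lower without overlap numbered 10 to 16, the most without RFP-negative replicate 1, and higher 6 to 8. Fewer arrays are easier to separate for any gene. The shares over all genes were not computed for these fits, so the counts describe these members alone. The lone array is assumed to vary like the others. The median difference ran from −0.22 without RFP-negative replicate 1 to −0.0549 without RFP-positive replicate 2. The signs of these genes turned, over the ranges −0.26 to 0.51 for Adamts1, −0.69 to 0.0505 for Adamts3, −0.56 to 0.65 for Adamts4, −1.24 to 0.74 for Adamts8, −0.29 to 0.39 for Adamts10, −1.84 to 2.59 for Adamts12, −0.28 to 0.31 for Adamts14, −0.49 to 0.56 for Adamts15, −0.29 to 0.79 for Mmp15, −0.23 to 0.41 for Mmp17, −0.81 to 0.0736 for Timp2, −0.61 to 0.12 for Timp3 and −0.33 to 0.19 for Timp4. Apart from the construction named, the cause was not tested.

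The fractions share replicate numbers 1 and 2. Same-numbered arrays' deviations from the fraction means correlated at 0.092, which does not show that the numbers pair the samples. With the replicate block 0 members passed, and the counts without overlap (8 and 4) and the median of −0.07 are the same by construction; 1038 genes had an unadjusted p under 0.05 in place of 872. Median scaling moved the median of all genes from −0.05 to 0.03 and the shares of all genes without overlap to 16.6% lower and 24.4% higher. Signals near background limit Mmp23, Adamts2, Adamts5, Adamts12 and Adamts17.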
